A study of Mus musculus with 9 samples.

Results

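The 9 genes Gzma, Gzmb, Gzmc, Gzmk, Gzmm, Prf1 (perforin), Nkg7, Ctla2a and Ctla2b were followed in BaF3 cells, out of 19938 genes measured with a probe set of 1 symbol. All 9 were measured, each by 1 probe set annotated to that gene alone, and no probe set shared between several genes held any of them. The set was selected on the array values of Gzmc, which was lower with both RET fusions than with BCR-ABL, so the comparisons of each RET fusion with BCR-ABL are given here as a description, without p-values for these 9 genes. The difference between BCR-RET and FGFR1OP-RET was not what the choice was made on, and it was tested. The Gzmc values of the same RET fusion arrays did enter the choice.

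Granzymes are serine proteases that cytotoxic T cells and natural killer (NK) cells store in secretory granules and deliver into target cells through pores made by perforin. In the mouse, the granzyme genes include Gzma and Gzmk, whose products cleave after basic residues, Gzmb, whose product cleaves after aspartate and starts apoptosis, Gzmm, whose product cleaves after methionine, and Gzmc, which lies next to Gzmb in a cluster of related granule protease genes. Ctla2a and Ctla2b were first found in activated T cells and mast cells, and their products resemble the propeptide of cathepsin L-like cysteine proteases and inhibit such enzymes. Nkg7 encodes a membrane protein of cytotoxic granules that takes part in their release.

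BaF3 is a mouse haematopoietic cell line that depends on interleukin-3. The cells had been infected with a retrovirus carrying BCR-RET, FGFR1OP-RET or BCR-ABL (its P210 form) and sorted on EGFP fluorescence, with 3 Affymetrix MouseGene 1.0 ST arrays for each fusion. Every group carries a fusion kinase, and uninfected or empty-vector cells were not analysed here, so no value shows what a fusion does relative to none. Whether interleukin-3 was present at harvest, whether the sorted cells were pools or clones, and whether the 3 arrays came from separate cultures were not stated in the labels. The p-values therefore measure the spread between arrays only, and that spread may be technical.

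Values are log2 RMA values, a background-corrected, quantile-normalised summary of the probes of each probe set. Medians of the 9 arrays lay between 8.01 and 8.04, and arrays correlated with r of 0.993 to 0.996 within groups and 0.989 to 0.996 between groups over all probe sets. The median 9-array mean over the genes tested was 8.19, and the 9-array means of Gzmb, Gzmc, Nkg7, Ctla2a and Ctla2b were above it while those of Gzma, Gzmk, Gzmm and Prf1 were below it. Probe sets differ in brightness for the same amount of RNA, so this position does not rank the genes, and no detection calls were used, so whether the 4 dimmer genes were above background is not known. Of 13 measured T cell markers, 1 (Lat, an adaptor of the T cell receptor) had a 9-array mean above 8.19, and of 10 measured NK cell markers Il2rb, Tyrobp and Ccl5 did. The lineage-defining genes Cd3d, Cd3e, Cd8a, Ncr1 and Klrd1 were below it.

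The 4 promoter sequences below are shown because Gzmc and Gzmb were both lower with each RET fusion, and because Ctla2a, of which Ctla2b is a close relative, passed the test between the RET fusions. Each is the 250 bases before an annotated transcription start, from RefSeq on GRCm38.p6, read 5′ to 3′ on the strand of the gene. Capitals mark matches, on either strand, to TTCNNNGAA (a STAT motif), TGTGGT (a RUNX motif) or GGAAGT (an ETS motif), and no marked matches overlap. The windows are chr14:56234658-56234907 (minus strand) for Gzmc, chr14:56262335-56262584 (minus strand) for Gzmb, chr13:60936626-60936875 (minus strand) for the upstream of 2 starts of Ctla2a and chr13:60897448-60897697 (minus strand) for Ctla2b. The start used for Gzmc lies inside the longer annotated gene.
Gzmc: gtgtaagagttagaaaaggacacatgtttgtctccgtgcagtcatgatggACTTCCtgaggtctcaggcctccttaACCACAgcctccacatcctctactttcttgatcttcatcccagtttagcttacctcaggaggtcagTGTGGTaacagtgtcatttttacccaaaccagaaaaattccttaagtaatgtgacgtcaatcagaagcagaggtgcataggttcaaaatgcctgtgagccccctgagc
Gzmb: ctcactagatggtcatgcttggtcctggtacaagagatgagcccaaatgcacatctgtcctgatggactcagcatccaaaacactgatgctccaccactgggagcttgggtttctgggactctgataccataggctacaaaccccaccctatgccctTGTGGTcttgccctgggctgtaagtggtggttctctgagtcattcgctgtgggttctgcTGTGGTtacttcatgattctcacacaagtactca
Ctla2a: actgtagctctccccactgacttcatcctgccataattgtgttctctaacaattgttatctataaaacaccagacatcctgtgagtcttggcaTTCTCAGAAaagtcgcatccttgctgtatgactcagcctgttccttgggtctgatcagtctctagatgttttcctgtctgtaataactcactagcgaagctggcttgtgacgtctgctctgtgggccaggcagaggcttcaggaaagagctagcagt
Ctla2b: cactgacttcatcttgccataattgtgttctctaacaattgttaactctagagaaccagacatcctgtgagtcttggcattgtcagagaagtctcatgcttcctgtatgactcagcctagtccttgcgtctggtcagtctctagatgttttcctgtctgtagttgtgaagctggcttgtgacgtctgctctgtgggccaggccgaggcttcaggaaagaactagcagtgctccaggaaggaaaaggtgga

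The Gzmc and Gzmb windows hold 2 RUNX motif matches each, and the Gzmc window holds an ETS motif match. Aligned end to end, these 2 windows were identical at 50.2% of 289 aligned columns. The windows of Ctla2a and Ctla2b were identical at 76.8% of 272 aligned columns, and for the other start of Ctla2a the share was 64.7% of 295. Unrelated windows were not aligned, so the share to be found without any relation is not known. The Ctla2a window has a STAT motif match, TTCTCAGAA, and the Ctla2b window has no match to any of the 3 motifs. Over all 9 genes, which have 11 windows, the RUNX motif was found in 6 windows, the STAT motif in 4 and the ETS motif in 3, and the 2 windows of Ctla2a overlap and share their STAT motif match. Among 32851 RefSeq promoter windows of the same length, 14% held the RUNX motif, 7.02% the STAT motif and 19.7% the ETS motif. A match is a run of letters and was not tested as a binding site.

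Gzmc was lower in BaF3 cells with either RET fusion than in cells with BCR-ABL. It had log2 values of 11.87, 12.05 and 12.17 with BCR-RET, 11.86, 11.77 and 11.70 with FGFR1OP-RET and 12.79, 12.95 and 12.91 with BCR-ABL (replicates 1 to 3, probe set 10420302). All 6 RET fusion arrays were below all 3 BCR-ABL arrays, and the lowest BCR-ABL array was more than the range of either RET group above the highest RET array. The log2 difference from BCR-ABL was -0.86 (SE 0.08) for BCR-RET, a 1.81-fold lower value, and -1.10 (SE 0.08) for FGFR1OP-RET, a 2.15-fold lower value. These values chose the gene and are not a test. The cells were measured in bulk, so fewer cells expressing the gene and less RNA per cell cannot be told apart.

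Gzmb, whose product is the main apoptosis-inducing granzyme, had the same order of groups with a smaller spread of values. It had log2 values of 13.64, 13.82 and 13.74 with BCR-RET, 13.63, 13.62 and 13.63 with FGFR1OP-RET and 13.93, 13.99 and 14.01 with BCR-ABL. The RET fusion arrays were again all below the BCR-ABL arrays. The log2 difference from BCR-ABL was -0.24 (SE 0.05) for BCR-RET and -0.35 (SE 0.05) for FGFR1OP-RET, or 1.18-fold and 1.27-fold lower.

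Gzma, Gzmk and Gzmm differed from BCR-ABL by between -0.02 and 0.18 with either RET fusion. Gzma, a tryptase, lay between 6.30 and 6.62 with BCR-RET, 6.24 and 6.30 with FGFR1OP-RET and 6.28 and 6.30 with BCR-ABL. BCR-RET replicate 3 was level to 2 decimals with the highest arrays of both other groups, and replicates 1 and 2 were higher. Without BCR-RET replicate 1 the difference from BCR-ABL was 0.10 in place of 0.18, and 1 value was repeated exactly on 3 of the 9 arrays. Gzmk, a second tryptase encoded near Gzma, lay between 6.64 and 6.87 with BCR-RET, 6.67 and 6.80 with FGFR1OP-RET and 6.54 and 6.72 with BCR-ABL. Gzmm lay between 7.66 and 7.73, 7.73 and 7.92, and 7.61 and 7.78 in the same order of groups. The ranges of Gzmk and of Gzmm overlapped between every pair of groups.

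Prf1, the pore-forming partner of the granzymes, lay between 7.76 and 7.93 with BCR-RET, 7.53 and 7.76 with FGFR1OP-RET and 7.71 and 7.76 with BCR-ABL. Its differences from BCR-ABL, 0.09 for BCR-RET and -0.10 for FGFR1OP-RET (SE 0.07 each), were of opposite sign, and the ranges overlapped in both. As for Gzma, a Prf1 value was repeated exactly on 3 arrays. Of all genes tested, 30.1% had a value repeated on 3 or more arrays.

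Nkg7 was the most variable of the 9 genes between arrays of the same fusion. It had log2 values of 8.45, 8.87 and 9.65 with BCR-RET, 7.61, 8.22 and 8.85 with FGFR1OP-RET and 7.62, 7.80 and 8.27 with BCR-ABL. Within each group the array numbered 3 was the highest and the array numbered 1 the lowest. BCR-RET arrays were all above BCR-ABL arrays, with a log2 difference of 1.10 (SE 0.35), while FGFR1OP-RET arrays overlapped BCR-ABL arrays, with a difference of 0.33 (SE 0.35). In a fit that blocks on replicate number the BCR-RET difference was the same, with an SE of 0.1. Leaving out 1 array moved the BCR-RET difference between 0.77 and 1.37. The FGFR1OP-RET difference was 0.02 without FGFR1OP-RET replicate 3, 0.64 without FGFR1OP-RET replicate 1, 0.19 without BCR-ABL replicate 1 and 0.52 without BCR-ABL replicate 3. The median SE of a difference over all genes was 0.07.

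Ctla2a was higher with BCR-RET and lower with FGFR1OP-RET than with BCR-ABL. It had log2 values of 8.75, 8.93 and 9.35 with BCR-RET, 8.0, 7.84 and 7.66 with FGFR1OP-RET and 8.42, 8.46 and 8.41 with BCR-ABL. The 3 groups did not overlap, with BCR-RET at the top, BCR-ABL between and FGFR1OP-RET at the bottom. The log2 difference from BCR-ABL was 0.58 (SE 0.14) for BCR-RET and -0.60 (SE 0.14) for FGFR1OP-RET.

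Ctla2b, the close relative of Ctla2a, had the same order of means with smaller differences. It had log2 values of 8.74, 8.40 and 9.05 with BCR-RET, 8.34, 8.29 and 8.13 with FGFR1OP-RET and 8.51, 8.50 and 8.49 with BCR-ABL. BCR-RET overlapped BCR-ABL, with replicate 2 below it and replicates 1 and 3 above it, and all FGFR1OP-RET arrays were below all BCR-ABL arrays. The log2 difference from BCR-ABL was 0.23 (SE 0.13) for BCR-RET and -0.24 (SE 0.13) for FGFR1OP-RET. The BCR-RET difference was 0.07 without BCR-RET replicate 3 and 0.39 without BCR-RET replicate 2. Cross-hybridisation between the 2 probe sets was not tested.

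**Figure D1:**
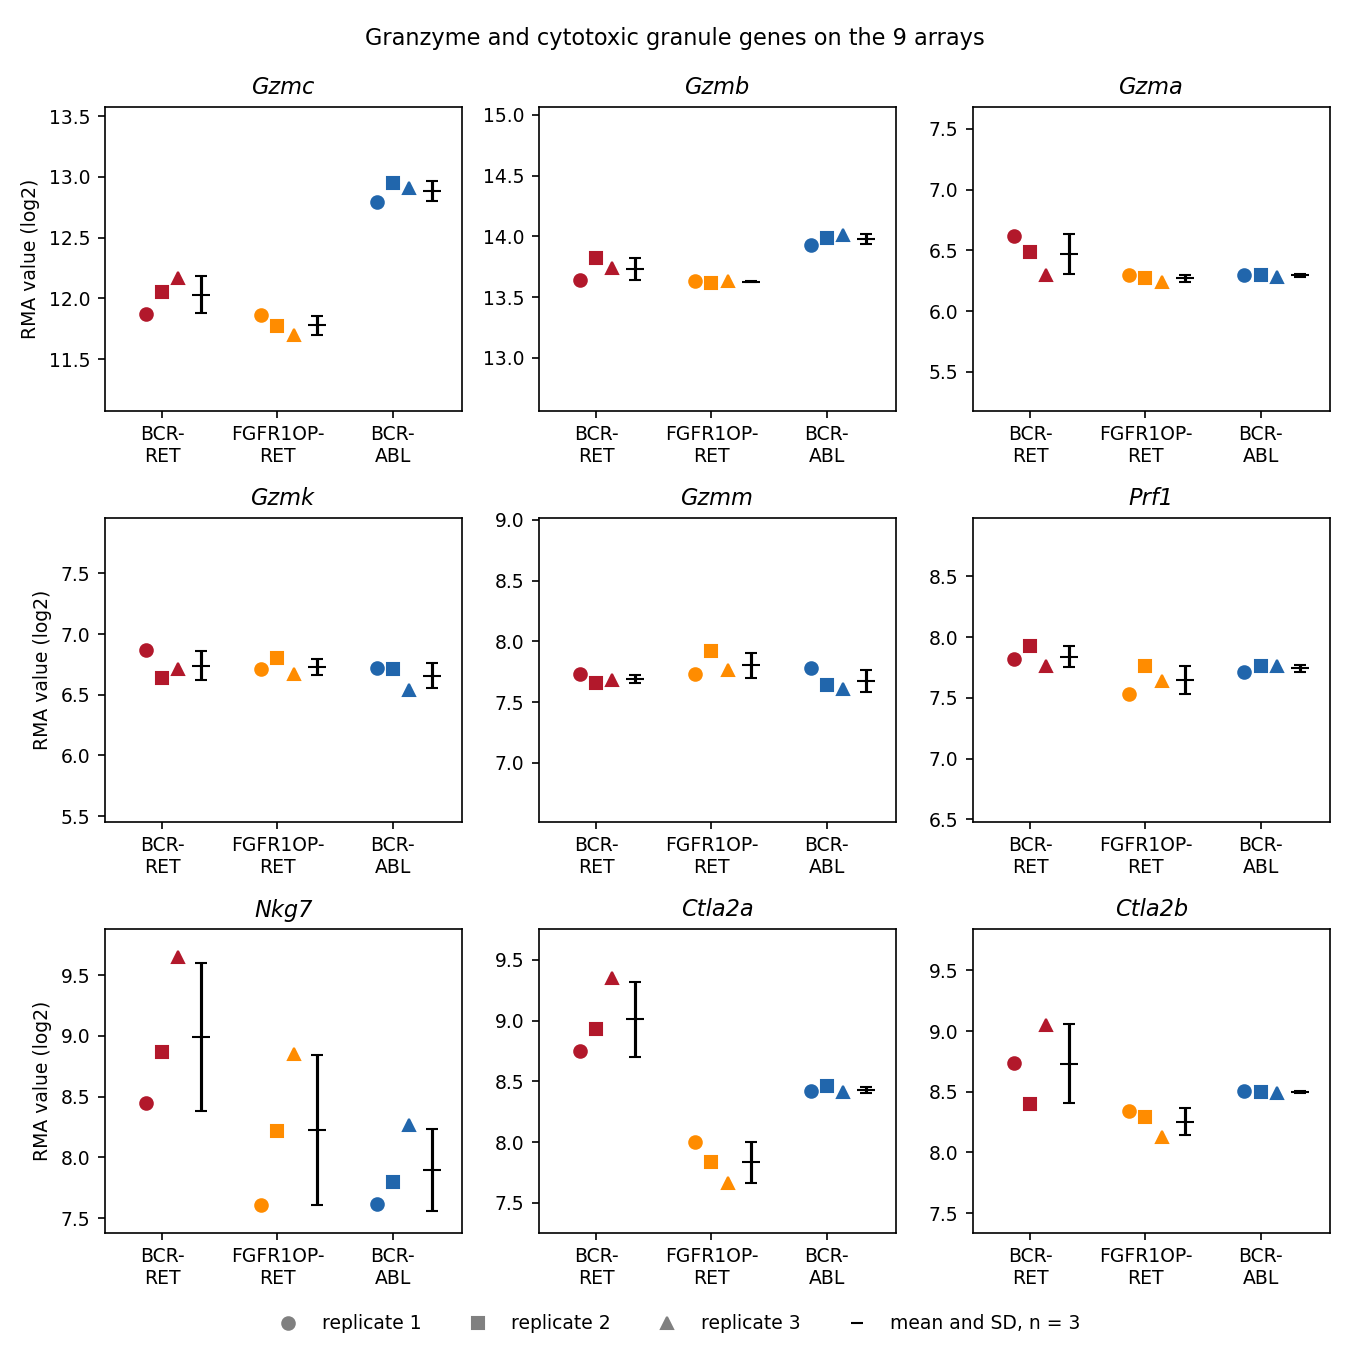
Log2 RMA values of the 9 genes (one panel each, y axis spanning the same log2 width in every panel) in BCR-RET, FGFR1OP-RET and BCR-ABL cells. Symbol shapes mark the replicate numbers and bars the mean and SD of 3 arrays. Gzmc and Gzmb are lower on all 6 RET fusion arrays, Ctla2a separates all 3 groups, and Nkg7 spreads from 7.61 to 9.65.

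As a set, the 9 genes did not move in one direction. In BCR-RET against BCR-ABL, 7 had a difference above 0 and 2 below, where 39.3% of all genes were below 0. Their median was 0.09 against 0.03 over all genes tested. In FGFR1OP-RET against BCR-ABL, 3 had a difference above 0 and 6 below, where 49.2% of all genes were below 0. Their median was -0.10 against 0.00 over all genes. Both comparisons use the same BCR-ABL arrays. At an adjusted p under 0.05 in limma, 1 of the 9 (Gzmc) passed in BCR-RET against BCR-ABL, beside 0.587% of all genes (0.371% higher, 0.216% lower), and 2 (Gzmc and Gzmb) passed in FGFR1OP-RET against BCR-ABL, beside 1.02% of all genes (0.787% higher, 0.231% lower). With BCR-RET, the ranges did not overlap for 5 of the 9, 3 above and 2 below, beside 16.6% of all genes (10.7% above, 5.9% below). With FGFR1OP-RET, they did not overlap for 4, all below, beside 12.1% of all genes (6.94% above, 5.13% below). Gzmc chose the set in these comparisons, so its calls are no test. Nothing is read from the counts or from how they change between fits. Without BCR-ABL replicate 2 or 3, or any 1 of the FGFR1OP-RET arrays, Gzmb did not pass and the count for FGFR1OP-RET was 1, and without BCR-RET replicate 3 it was 3, with Ctla2a. A fit that blocks on replicate number called 2 of the 9 for BCR-RET minus BCR-ABL, Gzmc and Nkg7.

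**Figure D2:**
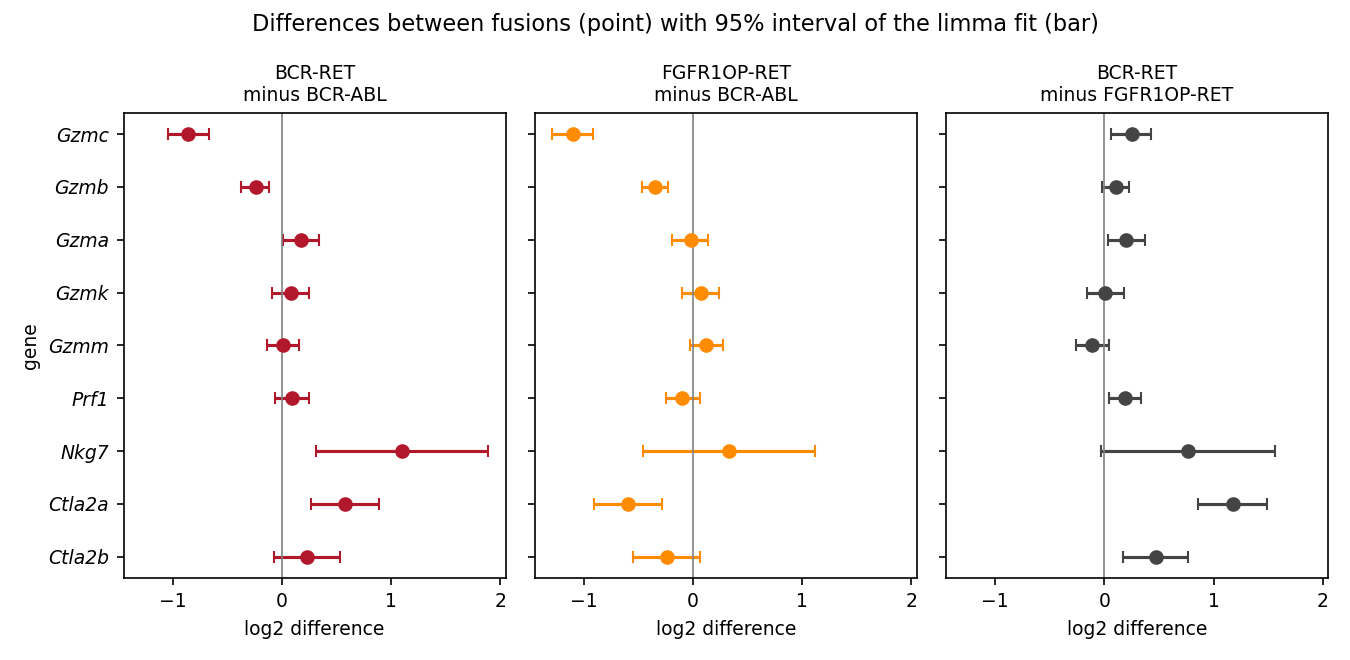
Log2 differences of the 9 genes in the 3 comparisons (points), with the 95% interval of the limma fit over all genes (bars) and a line at 0. Gzmc is -0.86 and -1.10 against BCR-ABL, and Ctla2a is 1.18 in BCR-RET minus FGFR1OP-RET.

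Between the RET fusions, Ctla2a was higher in BCR-RET cells than in FGFR1OP-RET cells, and BCR-ABL cells lay between. Its mean was 9.01 ± 0.31 in BCR-RET cells, against 7.83 ± 0.17 in FGFR1OP-RET cells (SD, n = 3 each), a log2 difference of 1.18 (95% interval 0.86 to 1.49, 2.26-fold, limma adjusted p = 0.00591), with all 3 BCR-RET arrays above all 3 FGFR1OP-RET arrays. It was the 1 gene of the 9 that passed, beside 1.33% of all genes (0.476% higher, 0.853% lower). Over the alternatives tried its adjusted p ran from 0.00223 to 0.0622, and it missed the threshold when the fit used only the 6 arrays of these fusions, where the difference was the same.

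The other 8 genes did not pass between the RET fusions. Ctla2b was 8.73 ± 0.32 in BCR-RET cells, against 8.26 ± 0.11 in FGFR1OP-RET cells, a difference of 0.47 (95% interval 0.17 to 0.77, adjusted p = 0.156), and it passed without BCR-RET replicate 2 (0.64, adjusted p = 0.0433). Nkg7 was 8.99 ± 0.61 in BCR-RET cells, against 8.23 ± 0.62 in FGFR1OP-RET cells, a difference of 0.77 whose interval ran from -0.03 to 1.56 (adjusted p = 0.35). Leaving out replicate 3 of BCR-RET gave 0.43, and leaving out replicate 1 of FGFR1OP-RET gave 0.45. A limma fit that blocks on replicate number also gave 0.77 for Nkg7 and passed (SE 0.1, adjusted p = 0.00408). The numbers were not treated as pairs for these groups.

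Gzmc and Gzmb, the granzymes that were lower with both RET fusions, did not pass between these fusions. Gzmc was 12.03 ± 0.15 in BCR-RET cells, against 11.78 ± 0.08 in FGFR1OP-RET cells, a difference of 0.25 (95% interval 0.06 to 0.43, adjusted p = 0.219). The choice of the set used the Gzmc values of these arrays, so the Gzmc result is not independent of that choice. Gzmb differed by 0.11 (95% interval -0.02 to 0.23, adjusted p = 0.396). In both genes the lowest BCR-RET array was above the highest FGFR1OP-RET array, by 0.01 or less on the log2 scale.

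Prf1 differed by 0.19 (95% interval 0.04 to 0.34, adjusted p = 0.247), Gzma by 0.20 (0.03 to 0.37, adjusted p = 0.261), Gzmm by -0.11 (-0.26 to 0.04, adjusted p = 0.474) and Gzmk by 0.01 (-0.16 to 0.18, adjusted p = 0.958). In all, 8 of the 9 differences were above 0 and 1 below, where 39.4% of all genes were below 0. Their median was 0.20 against 0.03 over all genes. The ranges of 5 genes did not overlap, each with BCR-RET above, beside 15.3% of all genes (8.77% above, 6.49% below). These were Gzma, Gzmb, Gzmc, Ctla2a and Ctla2b, and for Gzma the gap between the groups is smaller than the 2 decimals printed.

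Gzmc and Gzmb lie at one end of a run of 7 granzyme genes on chromosome 14, in the order Gzme, Gzmd, Gzmg, Gzmn, Gzmf, Gzmc and Gzmb in the RefSeq table. The other 5 encode related granzymes, of which granzymes D to G are known from activated lymphocytes and the pregnant uterus. Gzmf was at 6.52 ± 0.06 in BCR-RET cells, 6.51 ± 0.10 in FGFR1OP-RET cells and 6.91 ± 0.15 in BCR-ABL cells, and its differences from BCR-ABL were -0.39 (adjusted p = 0.103) and -0.40 (adjusted p = 0.0651). Gzmg was at 6.11 ± 0.04, 5.87 ± 0.05 and 6.28 ± 0.07 in the same order. In FGFR1OP-RET cells it fell by 0.42 relative to BCR-ABL cells (SE 0.05, adjusted p = 0.0076), and the call held without each of the 9 arrays, with a highest adjusted p of 0.0445. With BCR-RET its difference from BCR-ABL was -0.18 (adjusted p = 0.281).

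Gzmd, Gzme and Gzmn overlapped between each RET fusion and BCR-ABL, with differences between -0.18 and -0.01. Among the 7 genes, which include Gzmc and its neighbour Gzmb, all differences from BCR-ABL were below 0 with BCR-RET (median -0.18) and with FGFR1OP-RET (median -0.35), beside 39.3% and 49.2% of all genes, whose medians were 0.03 and 0.00. The ranges of Gzmb, Gzmc, Gzmf and Gzmg lay below those of BCR-ABL in each of these comparisons, beside 5.9% of all genes with BCR-RET and 5.13% with FGFR1OP-RET. These counts are a description, since Gzmc chose the set. The genes of the cluster are similar in sequence, the 5 others had 9-array means below 8.19, and whether their probe sets pick up Gzmc or Gzmb transcripts was not tested.

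**Figure D3:**
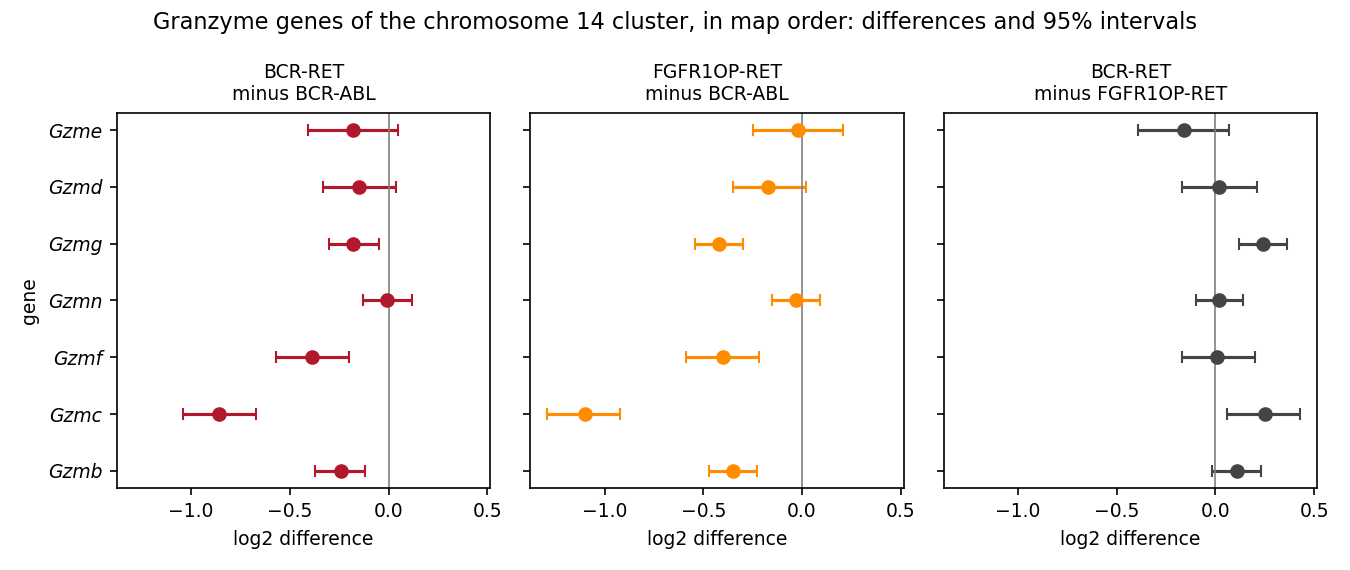
Log2 differences (points) with 95% intervals (bars) of the 7 granzyme genes of the chromosome 14 cluster, listed in map order from Gzme to Gzmb, in the 3 comparisons. Gzmc has the lowest difference from BCR-ABL with both RET fusions, and Gzmb, Gzmf and Gzmg lie between it and 0.

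The wider list of 11 measured granule proteases of this cluster and its neighbours, without Gzmb and Gzmc, had Gzmg as its 1 call, in FGFR1OP-RET against BCR-ABL. Beside it, 0.231% of all genes were called lower there. Its median was 0.00 with BCR-RET and -0.02 with FGFR1OP-RET, against 0.03 and 0.00 over all genes. Ctsg, the neutrophil protease cathepsin G, had differences of 0.77 and 1.36 that did not pass (adjusted p = 0.498 and 0.25). The mast cell protease genes Mcpt1, Mcpt2 and Mcpt4 and the basophil protease gene Mcpt8 had no call in the 3 comparisons. Ctsg and Mcpt8 increased from the array numbered 1 to the array numbered 3 within each group, as Nkg7 did.

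Of 16 measured genes that load, mature and release granules, limma called none against BCR-ABL in either comparison, with 3 and 5 at an unadjusted p under 0.05 for BCR-RET and FGFR1OP-RET. Of all 19938 genes, 2271 and 1943 had an unadjusted p under 0.05 in these comparisons. Srgn, the proteoglycan that packs granzymes, was at 13.88 in BCR-RET cells, 13.91 in FGFR1OP-RET cells and 13.82 in BCR-ABL cells. Ctsc, the peptidase that activates granzyme precursors, was at 12.90, 12.62 and 12.89 in that order, with no call. Lyst, a regulator of the size of lysosome-related granules, fell by 0.86 in BCR-RET against FGFR1OP-RET (SE 0.16, adjusted p = 0.0376), a call that leaving out any 1 of 8 arrays ended (highest adjusted p = 0.108), as did fitting only the 2 groups compared (adjusted p = 0.152).

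Among 8 measured inhibitors of granzymes and cathepsins, Cst7 was higher in BCR-RET than in FGFR1OP-RET cells. It was the 1 call of the list there, beside 0.476% of all genes called higher. Cst7 encodes cystatin F, which inhibits cysteine cathepsins including the granzyme-activating cathepsin C. It had log2 values of 11.03, 11.27 and 11.29 with BCR-RET, 10.16, 10.24 and 10.63 with FGFR1OP-RET and 10.54, 10.66 and 10.66 with BCR-ABL. All BCR-RET arrays were above all arrays of both other groups, as for Ctla2a. The difference between the RET fusions was 0.85 (SE 0.12, adjusted p = 0.0108), and the call ended without BCR-RET replicate 2 or 3 or FGFR1OP-RET replicate 2 (highest adjusted p = 0.0642) or when only the 2 groups compared were fitted (adjusted p = 0.0919). The serpin gene Serpinb9, whose product inhibits granzyme B, was at 6.37 ± 0.22, 6.17 ± 0.14 and 6.32 ± 0.23 in BCR-RET, FGFR1OP-RET and BCR-ABL cells and passed in none of the 3 comparisons. Ctsl, which encodes cathepsin L, was at 6.98, 7.01 and 7.03 in that order, with no call.

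Of 14 regulators of cytotoxic genes, Runx1 was higher with both RET fusions than with BCR-ABL. Id2 was lower in BCR-RET than in FGFR1OP-RET cells. Each was the 1 call of the list in its comparison. Beside Runx1, 0.371% of all genes were called higher with BCR-RET and 0.787% with FGFR1OP-RET. Beside Id2, 0.853% were called lower. Runx1, a transcription factor of blood cell development, was at 11.28 ± 0.10 in BCR-RET cells, 11.16 ± 0.20 in FGFR1OP-RET cells and 10.50 ± 0.19 in BCR-ABL cells. Its differences from BCR-ABL were 0.78 (adjusted p = 0.0197) and 0.66 (adjusted p = 0.032), in calls that ended without any 1 of 4 and 6 arrays (highest adjusted p = 0.123 and 0.168). With FGFR1OP-RET the call also ended when only the 2 groups were fitted (adjusted p = 0.114) and when arrays were centred on their medians (adjusted p = 0.0587). Id2, an inhibitor of E proteins needed by NK cells, was at 11.42 ± 0.07 in BCR-RET cells, against 11.88 ± 0.17 in FGFR1OP-RET cells, a difference of -0.46 (adjusted p = 0.042, up to 0.158 without 1 array and 0.155 with only these groups fitted). Runx3, Eomes, Tbx21, Prdm1, Stat5a and Stat5b, which act on granzyme or perforin genes in lymphocytes, passed in none of the 3 comparisons, with differences between -0.19 and 0.13.

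None of 13 T cell, 10 NK cell, 12 mast cell and basophil or 11 B-lineage markers passed in limma against BCR-ABL. At an unadjusted p under 0.05 were 2, 1, 1 and 1 of them with BCR-RET, beside 2271 of 19938 genes. With FGFR1OP-RET it was 1 of each list, beside 1943 of 19938 genes. The mean log2 value of the T cell list per array was 7.53 to 7.55 in BCR-RET cells, 7.38 to 7.43 in FGFR1OP-RET cells and 7.41 to 7.47 in BCR-ABL cells. Lat was higher by 0.32 in BCR-RET than in FGFR1OP-RET cells (limma adjusted p = 0.041). It was the 1 call of this list there, beside 0.476% of all genes called higher. Its adjusted p was up to 0.148 without 1 array, 0.124 with only these groups fitted, 0.0537 with a trended robust fit and 0.0535 after median centring. The NK cell list was at 6.79 to 6.96 in BCR-RET cells, 6.73 to 6.90 in FGFR1OP-RET cells and 6.73 to 6.80 in BCR-ABL cells. The mast cell and basophil list was at 8.23 to 8.39, 8.22 to 8.40 and 8.21 to 8.37 in that order, and the B-lineage list at 7.16 to 7.20, 7.08 to 7.21 and 7.09 to 7.14. Array medians over all genes tested were 8.21 to 8.24, 8.17 to 8.22 and 8.15 to 8.18 in that order, so the BCR-RET arrays were also higher than the BCR-ABL arrays over all genes. Cpa3, a mast cell granule carboxypeptidase gene, was higher in BCR-RET than in FGFR1OP-RET cells by 0.99, which did not pass (adjusted p = 0.218).

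Of 10 measured neutrophil granule genes, 4 rose with FGFR1OP-RET relative to BCR-ABL, where Gzmc was lower, beside 0.787% of all genes, and the list median was 0.83 against 0.00 over all genes. Prtn3, a neutrophil serine protease gene, rose by 1.27 (adjusted p = 0.00234) and passed without each array in turn. Mpo, Mmp8 and S100a9, genes of myeloperoxidase, a collagenase and a calcium-binding protein, rose by 1.55, 1.33 and 0.96, in calls that ended without any 1 of 7, 5 and 5 arrays (highest adjusted p = 0.156, 0.115 and 0.146). With only the 2 groups fitted, Mpo and Mmp8 did not pass (adjusted p = 0.109 and 0.108). Mpo and Prtn3 increased with the array number within each group, and Mmp8 and S100a9 did not. With BCR-RET none of the list passed in limma relative to BCR-ABL, and the median was 0.53 against 0.03 over all genes. At an unadjusted p under 0.05 were 5 of the list, beside 2271 of 19938 genes. Between the RET fusions Prtn3 was lower by 0.65 in BCR-RET cells (limma adjusted p = 0.0456, up to 0.141 without 1 array and 0.114 with only these groups fitted). It was the 1 call of the list there, beside 0.853% of all genes called lower. The mean of this list per array was 10.52 to 10.91 in BCR-RET cells, 10.75 to 11.19 in FGFR1OP-RET cells and 9.97 to 10.30 in BCR-ABL cells. Its part in the values of Gzmc and Gzmb was not tested.

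The genes whose values over the 9 arrays were most like those of Gzmc were Ryk, Tspan8, Hbegf, Mapk8ip2 and Arnt2. Likeness was the root mean square difference between the values of 2 genes, each centred on its own 9-array mean, and was 0.15, 0.218, 0.227, 0.228 and 0.229 on the log2 scale in that order, against a median of 0.496 over 19937 genes. Ryk encodes a Wnt receptor of the receptor tyrosine kinase family, Tspan8 a tetraspanin, Hbegf an EGF-like growth factor, Mapk8ip2 a scaffold of JNK signalling and Arnt2 a bHLH-PAS transcription factor. Ryk was at 7.46, 7.65 and 7.65 with BCR-RET, 7.15, 7.08 and 7.21 with FGFR1OP-RET and 8.07, 8.10 and 8.36 with BCR-ABL. As with Gzmc, each of the 5 had all 6 RET fusion arrays below all 3 BCR-ABL arrays, which choosing them by likeness to Gzmc favours. Hbegf differed from the others in having a lower mean with BCR-RET (9.36) than with FGFR1OP-RET (9.50).

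Among the other 8 granule genes, Gzmb came nearest to Gzmc, at rank 45 of 19937 with a root mean square difference of 0.335. Prf1 was at rank 6241 and Ctla2b at 8823, and the remaining 5 were at ranks from 15159 (Gzma) to 19908 (Nkg7). This measure weighs the size of the differences as well as their order, and a gene with equal values on all arrays would be at 0.482 from Gzmc. The ranking uses the same 9 arrays that chose Gzmc, so it is a description.

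**Figure D4:**
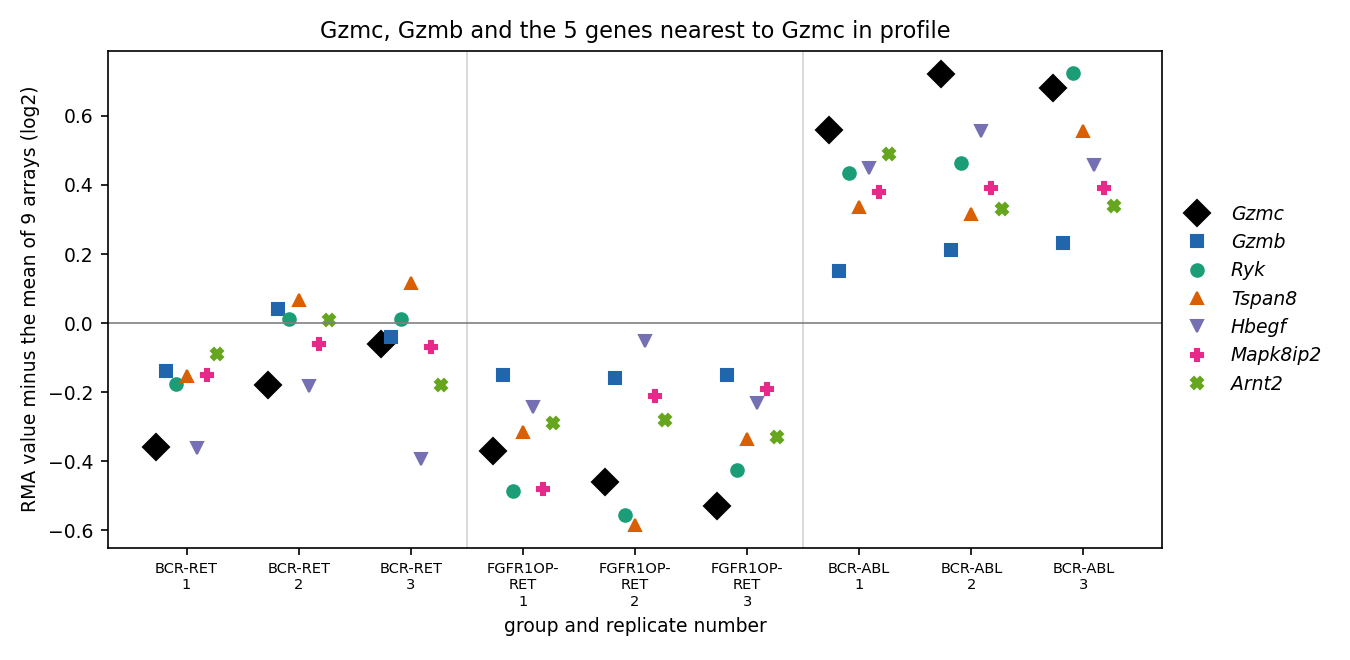
Log2 RMA values minus the 9-array mean of each gene for Gzmc, Gzmb and the 5 genes nearest to Gzmc, by group and replicate number. All 7 genes are higher on the 3 BCR-ABL arrays than on any RET fusion array, and Gzmb spans a smaller range than Gzmc.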

How the data were processed

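Expression was measured in 9 samples of infected and sorted BaF3 cells, 3 for each of BCR-RET, FGFR1OP-RET and BCR-ABL, grouped by the sample titles. Each deposited value is the log2 level of a probe set on an array, made by the authors with gene-level RMA in Affymetrix Expression Console, per the labels and the submitters' processing notes. Versions, annotation and build: not given in the sources used here. Quantile normalisation gives arrays the same distribution and can hide a shift of most transcripts one way, and the number of arrays limits the precision.

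Of 35557 probe sets, 21789 had 1 symbol, 1621 several and 12147 none in the platform annotation. The probe set with the highest 9-array mean was kept for each gene, leaving 19938 genes. These were fitted with limma 3.58.1 in R 4.3.3 (lmFit, eBayes, a mean per group, all 9 arrays), and p-values were adjusted by Benjamini-Hochberg over all 19938 genes, two-sided, with a threshold of 0.05. The fit was tested on simulated data. SE stands for the standard error of a difference, ± is the SD of 3 arrays, and fold is 2 to the power of a log2 difference.

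The 9 genes, the gene lists and the motifs were chosen with earlier results of these data known. The text names all 9 genes, up to 4 genes past the threshold per list and comparison, and the 5 genes nearest to Gzmc. Other genes of the lists that it names were chosen after their values were seen, for their known roles. Promoters were read from RefSeq tables of GRCm38.p6 and aligned with Biopython 1.88.

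The groups share replicate numbers. After subtracting group means, same-numbered BCR-RET and BCR-ABL arrays had r of 0.617, 0.155 and 0.367 across genes, all above the limit of 0.1 for treating numbers as pairs. The main fit did not use these pairs, so its SE and calls for BCR-RET against BCR-ABL are those of unpaired arrays. The replicate block was run as an alternative. For FGFR1OP-RET, number 2 gave -0.128 with BCR-ABL and -0.152 with BCR-RET, so those numbers were not treated as pairs. The alternatives were a replicate block, a fit of 2 groups only, probe sets with several symbols, the mean of a gene's probe sets, a filter on low values, a trended robust eBayes, median centring, and leaving out each array.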

Additional observations from a re-analysis of the deposited data

How the results depend on the processing

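Blocking on replicate number (replicate block), limma called 362 genes for BCR-RET relative to BCR-ABL, 576 for FGFR1OP-RET relative to BCR-ABL and 1135 between the RET fusions, against 117, 203 and 265 with no block. In that order, a fit of only the 2 groups compared gave 56, 94 and 34. Leaving out 1 array gave 28 to 114, 70 to 185 and 86 to 194 genes. Among the 9 granule genes, the block gave 2 calls for BCR-RET relative to BCR-ABL and 2 between the RET fusions, with Nkg7 added both times (0.77 between the RET fusions, adjusted p = 0.00408, where the numbers were not treated as pairs, and 6 of 9 arrays correlated best with an array of their own number). Fitting 2 groups only gave 0 calls in limma between the RET fusions, with 4 of the 9 at an unadjusted p under 0.05 and Ctla2a at an adjusted p of 0.0622. In the main fit 5 of the 9 had an unadjusted limma p under 0.05 between the RET fusions, beside 2964 of 19938 genes. Leaving out 1 array gave 1 to 1, 1 to 3 and 1 to 2 calls in the order above. Ctla2a passed between the RET fusions without each of the 9 arrays. No difference of the 9 genes that passed changed sign under the alternatives run, which says nothing independent of Gzmc and Gzmb against BCR-ABL, since Gzmc chose the set. The alternatives for genes of the lists were added after seeing the data. Without scanner intensities, neither signal over background nor saturation could be read, which limits what is known of the dimmest genes and of Gzmb.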
